A study of Sus scrofa with 3 samples.

Results

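BMP6, SLC40A1 and MT3 are 3 genes of metal handling whose read counts differed between the liver libraries of 3 breeds of pig. They were chosen because of those differences, so their values are given as a description with no test. All 3 were found by Ensembl gene ID (ENSSSCG00000001027, ENSSSCG00000027157 and ENSSSCG00000024305) among 25322 gene IDs, and all 3 were among the 13228 expressed IDs, meaning that 1 library or more reached 1 CPM (counts relative to the library total). Liver RNA was sequenced from males at postnatal day 90, with 1 library each from an Enshi black pig, a Chinese wild boar and a Large White pig. Large White, a commercial breed, is the library against which the Enshi black and Chinese wild boar libraries are set, and those 2 libraries are also compared with each other. The labels do not mention pooling, treatment or genotype. Breed, animal and library cannot be told apart, and without replicates none of the differences has a check on animals of one breed.

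BMP6 (bone morphogenetic protein 6) is a secreted signal. In mouse liver it is made mainly by sinusoidal endothelial cells and acts on hepatocytes through BMP receptors and SMAD proteins to raise hepcidin, the hormone of iron balance. SLC40A1 (ferroportin) is the iron exporter of cell membranes, prominent on macrophages and hepatocytes, and hepcidin binds it and causes its degradation, a control that acts on the protein and not on the mRNA. MT3 is annotated as metallothionein-3, one of a family of small cysteine-rich proteins that bind zinc and copper. In humans and mice MT3 is known mostly from brain, whereas the MT1 and MT2 forms are abundant in liver and are induced by metals, glucocorticoids and inflammation.

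The library totals were 20654571 gene counts for Enshi black, 20215871 for Chinese wild boar and 19982627 for Large White. CPM are counts scaled to library totals of equal size. A floor of 3 counts was worth 0.139, 0.152 and 0.154 CPM in the same order, after scaling by TMM (trimmed mean of M values, a correction for library composition), and all CPM values given below are scaled in this way. The Enshi black library stood apart in one respect: 47 gene IDs with 5 CPM or more in the remaining pair of libraries had 3 counts or fewer there. The Chinese wild boar and Large White libraries had 1 such ID each. Every interval in parentheses covers counting error at the 95% level, as an exact Poisson interval for a level and an exact conditional binomial (Clopper-Pearson) interval for a fold. The size rule asked that the whole interval of a fold lie at or beyond a 2-fold difference, and a gene is said to pass on that ground. In each pair of libraries, higher and lower refer to the animal named first.

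The 3 genes showed 3 different orders across the livers. BMP6 was highest in Enshi black, SLC40A1 was highest in Enshi black and lowest in Chinese wild boar, and MT3 was highest in Large White. In any pair of libraries, the Poisson intervals of each gene's levels did not overlap. The genes were picked for such differences, and the same share over all expressed genes was not computed, so nothing is read from this.

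**Figure D1:**
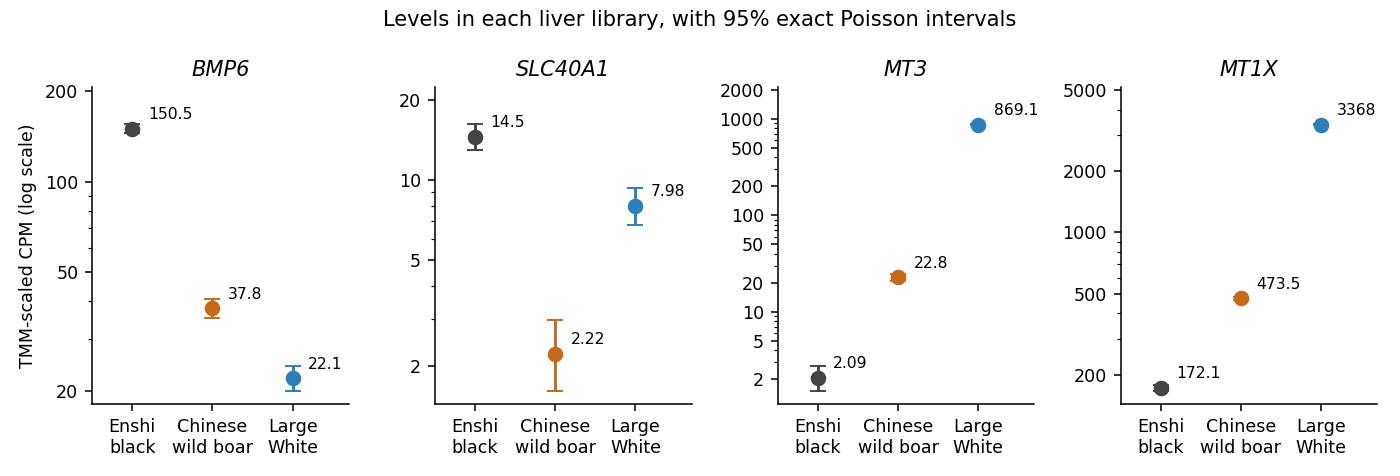
TMM-scaled CPM (log axis, with its own range in each panel) of BMP6, SLC40A1, MT3 and MT1X, the other metallothionein ID in the tables, in the Enshi black, Chinese wild boar and Large White libraries. Points are single libraries and bars are 95% exact Poisson intervals; both metallothionein IDs lie lowest in Enshi black and highest in Large White, the reverse of BMP6.

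The hepcidin signal BMP6 had 3247 counts in Enshi black, 748 in Chinese wild boar and 432 in Large White. These correspond to 150.5 CPM (145 to 156), 37.8 CPM (35.1 to 40.6) and 22.1 CPM (20.1 to 24.3). The Enshi black library was thus well above the other two, which lay closer together. BMP6 was 6.81-fold higher in the Enshi black liver than in Large White (6.15 to 7.54) and 3.98-fold higher than in Chinese wild boar (3.67 to 4.31), passing the size rule in both comparisons. Between Chinese wild boar and Large White it was 1.71-fold higher in Chinese wild boar (1.52 to 1.93) and did not pass. By log2 fold, BMP6 ranked 124 from the top of the 13228 expressed genes between Enshi black and Large White and 252 from the top between Enshi black and Chinese wild boar.

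The iron exporter SLC40A1 had 313 counts in Enshi black, 44 in Chinese wild boar and 156 in Large White. The levels were 14.5 CPM (12.9 to 16.2), 2.22 CPM (1.62 to 2.99) and 7.98 CPM (6.78 to 9.34). The Chinese wild boar library was the low one, and its interval was the widest relative to its level, resting on few counts. SLC40A1 was 3.59-fold lower in Chinese wild boar than in Large White (2.55 to 5.14) and 6.52-fold higher in Enshi black than in Chinese wild boar (4.75 to 9.16), and it passed in both. In Enshi black it was 1.82-fold higher than in Large White (1.49 to 2.22) and did not pass. SLC40A1 ranked 118 from the top between Enshi black and Chinese wild boar and 293 from the bottom between Chinese wild boar and Large White.

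The metallothionein ID MT3 had 45 counts in Enshi black, 451 in Chinese wild boar and 16982 in Large White. Its levels were 2.09 CPM (1.52 to 2.79), 22.8 CPM (20.7 to 25) and 869 CPM (856 to 882). Both the Enshi black and the Chinese wild boar libraries were far below Large White, and Enshi black was the lowest. MT3 was 417-fold lower in the Enshi black liver than in Large White (311 to 572), 38.1-fold lower in Chinese wild boar than in Large White (34.7 to 42.0) and 10.9-fold lower in Enshi black than in Chinese wild boar (8.04 to 15.2). By log2 fold it ranked 13 from the bottom of the expressed genes between Enshi black and Large White and 7 from the bottom between Chinese wild boar and Large White.

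Between Enshi black and Large White, 2 of the 3 genes passed (BMP6 as higher, MT3 as lower), where 13.1% of all expressed genes did, 4.69% as higher and 8.39% as lower. Between Chinese wild boar and Large White, 2 passed, SLC40A1 and MT3, both as lower, beside 6.7% of all expressed genes, 2.96% as higher and 3.74% as lower. Between Enshi black and Chinese wild boar all 3 passed, BMP6 and SLC40A1 as higher and MT3 as lower, beside 11.1% of all expressed genes, 4.03% as higher and 7.1% as lower. The genes were picked on these same folds, so nothing is read from those counts, and the 3 comparisons share libraries. Over all expressed genes the median log2 fold was 0.01, 0.00111 and 0.00952 in the same order.

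**Figure D2:**
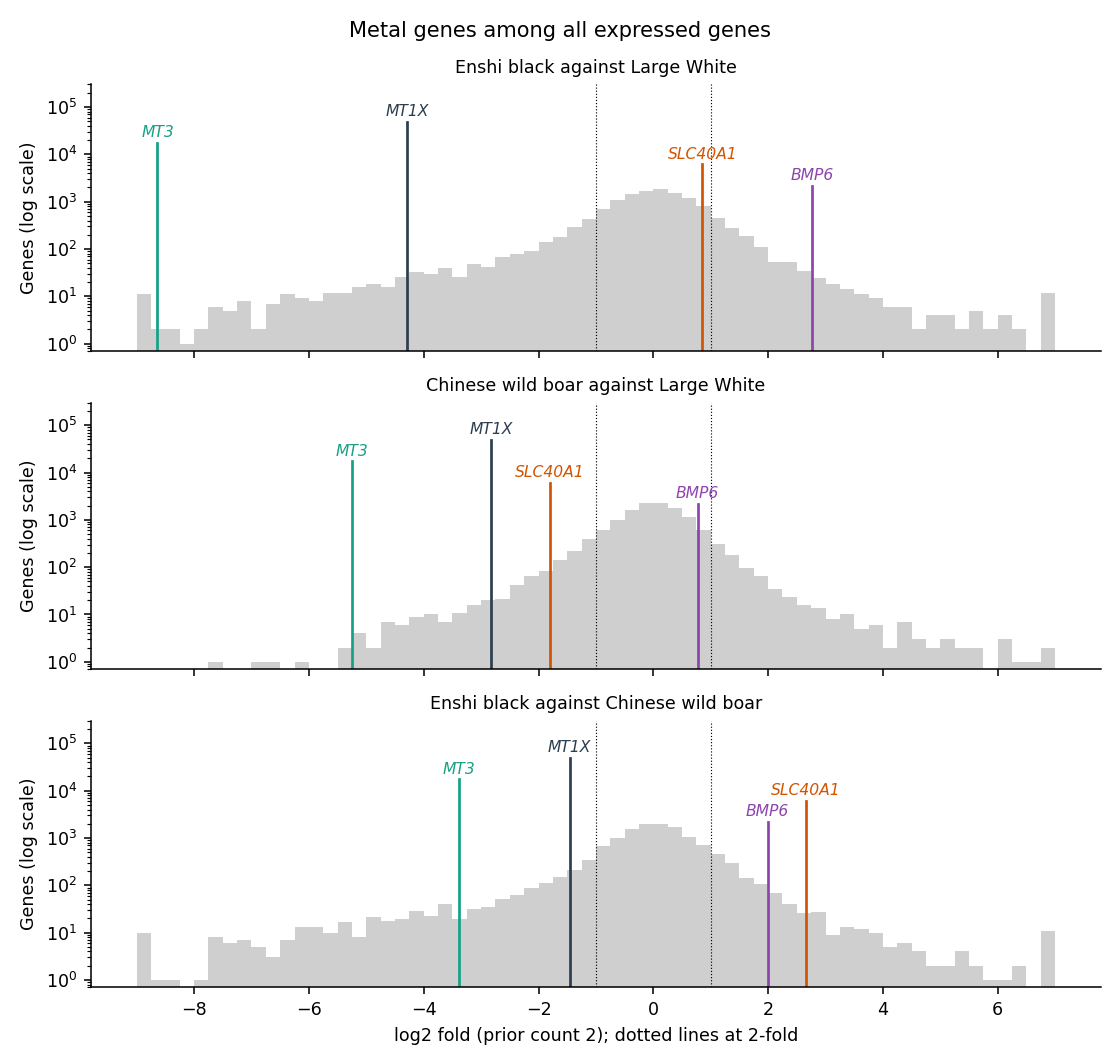
Histograms of the log2 fold (prior count 2) over the 13228 expressed genes in each of the 3 comparisons, with the vertical axis on a log scale and the outermost bins also holding folds beyond the range. Coloured lines mark BMP6, SLC40A1, MT3 and MT1X and dotted lines mark a 2-fold difference; MT3 lies in the far lower tail in both comparisons against Large White.

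MT3 sits in a cluster of metallothionein genes. In RefSeq order on Sscrofa11.1, a later assembly used here for names and order only, MT4 lies on one side of MT3, and MT-2B, MT1D, LOC100739663, LOC102166944 and MT1A follow on the other before NUP93. Only 1 other ID of the count tables was named as a metallothionein, ENSSSCG00000030300, annotated MT1X. Reads of the other family members may have been counted under either ID, dropped or set apart as ambiguous, and the MT3 and MT1X values are uncertain for that reason.

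MT1X followed the same order as MT3, with smaller folds. It had 3714 counts in Enshi black, 9369 in Chinese wild boar and 65805 in Large White, or 172 CPM (167 to 178), 473.5 CPM (464 to 483) and 3368 CPM (3342 to 3394). MT1X was 19.6-fold lower in the Enshi black liver than in Large White (18.9 to 20.2), 7.11-fold lower in Chinese wild boar than in Large White (6.96 to 7.27) and 2.75-fold lower in Enshi black than in Chinese wild boar (2.65 to 2.86). All 3 comparisons passed.

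The counts of the 2 IDs did not keep 1 ratio across the libraries. There were 82.5 MT1X counts per MT3 count in Enshi black (61.6 to 113), 20.8 in Chinese wild boar (18.9 to 22.9) and 3.87 in Large White (3.81 to 3.94). Expressed as a share of both IDs together, MT3 held 1.20% in Enshi black (0.874 to 1.60), 4.59% in Chinese wild boar (4.19 to 5.03) and 20.5% in Large White (20.2 to 20.8), with exact Clopper-Pearson intervals. The summed level of both IDs was 174 CPM in Enshi black, 496 CPM in Chinese wild boar and 4237 CPM in Large White.

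The nearest genes outside the cluster with a matched ID did not pass the size rule. BBS2, a gene of the ciliary BBSome, had 7.27 CPM in Enshi black, 5.46 in Chinese wild boar and 10.8 in Large White. NUP93, a nuclear pore gene, had 9.31, 7.93 and 10.6 CPM in the same order. BBS2 was 1.98-fold lower in Chinese wild boar than in Large White (1.56 to 2.52), the largest fold of the pair. For SLC40A1 the adjacent genes WDR75 (10.8, 7.88 and 6.86 CPM) and ASNSD1 (7.69, 14.6 and 10.8 CPM) did not pass either, nor did RIOK1 (15.1, 19.7 and 23.1 CPM) and DSP (284, 254 and 357 CPM) near BMP6. COL3A1, the collagen gene 3 places from SLC40A1, passed as 3.6-fold higher in the Enshi black liver than in Large White (3.49 to 3.72) and 2.18-fold higher than in Chinese wild boar (2.13 to 2.24).

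Around BMP6, few genes of hepcidin control passed the size rule, as was so of all expressed genes. Of 44 genes listed for this pathway, 34 had a matched ID and 30 were expressed. Besides BMP6 itself, 1 of them passed between Enshi black and Large White, 1 between Chinese wild boar and Large White and none between Enshi black and Chinese wild boar, where 13.1%, 6.7% and 11.1% of all expressed genes did. Genes that did not pass still differed in part beyond counting error, such as the signal transducer SMAD9, 2.87-fold lower in Enshi black (1.98 to 4.25) and 2.7-fold lower in Chinese wild boar (1.85 to 4.01) than in Large White. The list medians on the log2 scale were -0.22, -0.09 and 0.01. HAMP (hepcidin itself), HJV and HFE had no matched ID and were not analysed here.

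Among the other ligands, GDF2 (BMP9), a circulating BMP known in mice to come from liver, had 22.1 CPM in Enshi black, 23.1 in Chinese wild boar and 12.2 in Large White, and did not pass. The type I receptors BMPR1A (10.1, 7.18 and 5.58 CPM) and ACVR1 (37.5, 20.9 and 25.1 CPM) had their highest level in Enshi black, again without passing. The receptors ACVR2A (3.94, 6.17 and 5.53 CPM) and ACVR2B (0.788, 1.36 and 1.54 CPM) had their lowest level there. BMPR2 had 83.2, 64.6 and 83.9 CPM, and ACVR2A, ACVR2B and BMPR2 did not pass either. TFR2, the transferrin-sensing receptor of hepatocytes, had 808 CPM in Enshi black, 833 in Chinese wild boar and 1258 in Large White. TMPRSS6, the protease that restrains hepcidin, had 202, 337 and 349 CPM.

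Of the genes known as targets of BMP-SMAD signalling, 5 are given here. The inhibitory SMAD7 had 12.7 CPM in Enshi black, 12.4 in Chinese wild boar and 12.4 in Large White, with a fold of 1.02 between Enshi black and Large White (0.856 to 1.22). SMAD6 had 13.5, 12.6 and 18.1 CPM, ID2 had 54.1, 53.9 and 62.2 CPM, and the transcription factor ATOH8 had 5.51, 5.10 and 8.85 CPM. BAMBI, a decoy receptor gene, had 12.6, 7.38 and 7.42 CPM and was highest in Enshi black, as BMP6 was, at 1.69-fold above Large White (1.38 to 2.08) and 1.70-fold above Chinese wild boar (1.39 to 2.096). None of the 5 passed in any comparison. Between Enshi black and Large White, the fold intervals of SMAD6, ID2 and ATOH8 lay below 1, that of SMAD7 spanned 1 and that of BAMBI lay above 1. The listed ID1 and ID3 had no matched ID. Any link of these levels to BMP6 was not tested.

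The 2 members other than BMP6 that passed encode secreted modulators that bind BMPs. Chordin (CHRD), an antagonist, had 196 CPM in Enshi black, 378 in Chinese wild boar and 579 in Large White, the reverse of the BMP6 order. It was 2.95-fold lower in the Enshi black liver than in Large White (2.85 to 3.06), and its 1.93-fold lower level in Enshi black than in Chinese wild boar (1.86 to 2.002) did not pass. BMPER, a chordin-like modulator, had 7.51, 3.03 and 10.1 CPM and passed as 3.34-fold lower in Chinese wild boar than in Large White (2.49 to 4.54).

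**Figure D3:**
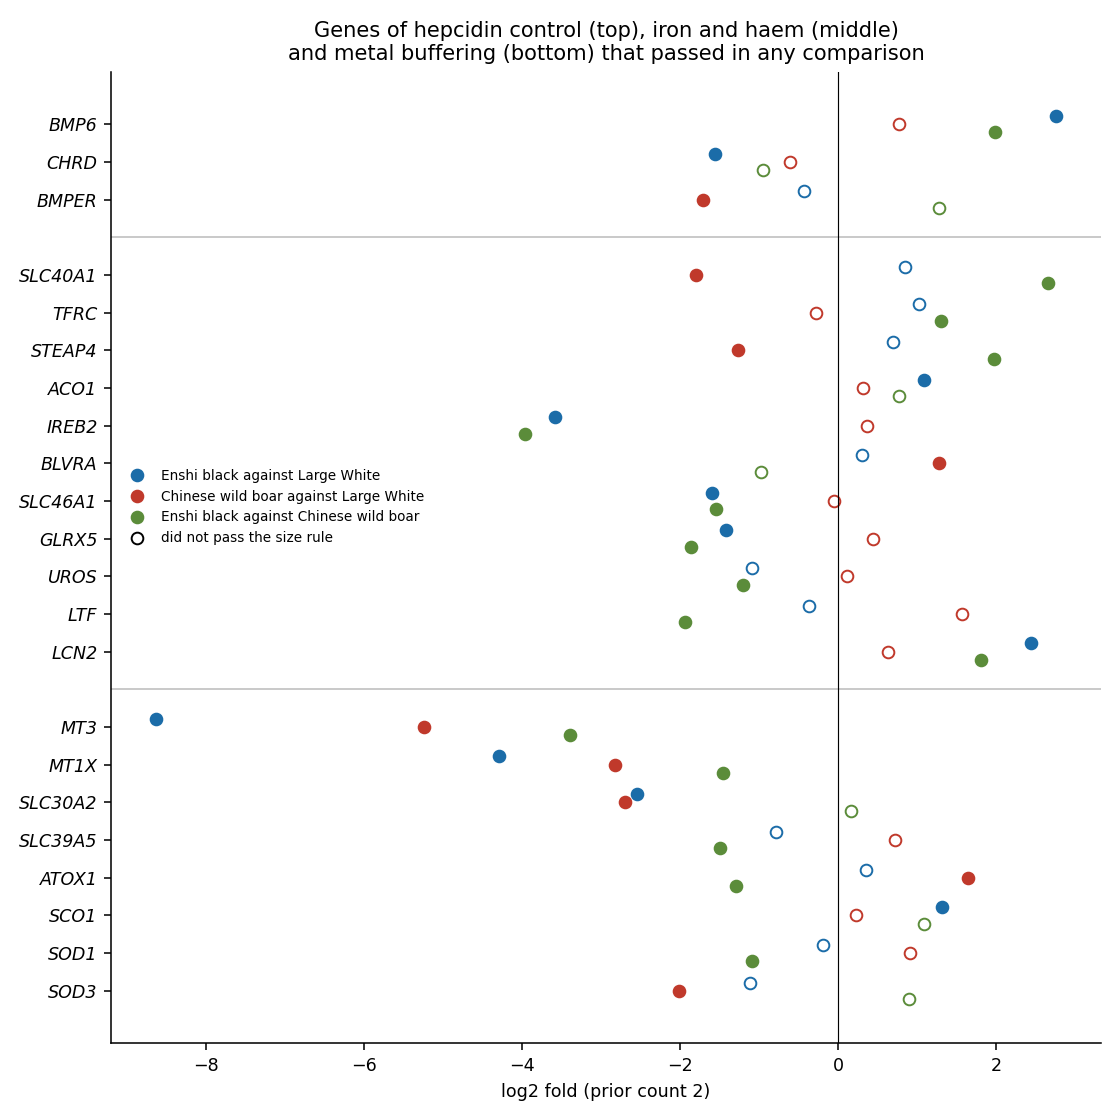
Log2 folds (prior count 2) of the 22 genes of the hepcidin control, iron and haem, and metal buffering lists that passed the size rule in at least 1 comparison. Colours give the 3 comparisons and open circles did not pass; BMP6 and CHRD lie on opposite sides of 0, and STEAP4 lies on the same sides as SLC40A1.

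Around SLC40A1, 54 genes of iron and haem transport, storage and use were listed, of which 39 had a matched ID and 36 were expressed. Between Enshi black and Large White 2 passed as higher and 3 as lower, with a median log2 fold of 0.21. Between Chinese wild boar and Large White 1 passed as higher and 2, SLC40A1 included, as lower, with a median of 0.14. Between Enshi black and Chinese wild boar 4 passed as higher, SLC40A1 included, and 5 as lower, with a median of 0.02. Over all expressed genes, 4.69% passed as higher and 8.39% as lower, 2.96% and 3.74%, and 4.03% and 7.1% in the same order of comparisons.

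In iron uptake, the plasma carrier transferrin (TF) had 23596 CPM in Enshi black, 18137 in Chinese wild boar and 21018 in Large White, and did not pass. The transferrin receptor TFRC had 135, 54.5 and 66.0 CPM. It passed as 2.47-fold higher in Enshi black than in Chinese wild boar (2.31 to 2.65), and its 2.04-fold higher level in the Enshi black liver than in Large White (1.91 to 2.18) fell just short. STEAP4, a metalloreductase, had 57.4, 14.6 and 35.3 CPM, the same order as SLC40A1. STEAP4 was 3.94-fold higher in Enshi black than in Chinese wild boar (3.47 to 4.50) and 2.42-fold lower in Chinese wild boar than in Large White (2.11 to 2.79).

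In storage and sensing, ferritin light chain (FTL) had 4874 CPM in Enshi black, 3639 in Chinese wild boar and 3335 in Large White. Ceruloplasmin (CP), the plasma ferroxidase that works with ferroportin, had 2560, 1692 and 2436 CPM. Neither passed. The iron sensors differed from each other: ACO1 (iron regulatory protein 1) had 307, 180 and 145 CPM and passed as 2.12-fold higher in the Enshi black liver than in Large White (2.03 to 2.22). IREB2 (iron regulatory protein 2) had 0 counts in Enshi black, 28 in Chinese wild boar and 21 in Large White. The last 2 levels were 1.42 and 1.07 CPM, close to the 1 CPM that counts as expressed. The Enshi black library also had the 47 IDs at or below the floor described above, a rule that IREB2 did not meet. The cause of its 0 counts was not tested. Set against a floor of 3 counts per library, IREB2 was 7.73-fold lower in the Enshi black liver than in Large White. On the same floor it was 10.18-fold lower than in Chinese wild boar. The interval bounds nearest to 1 were 5.75-fold and 7.75-fold lower in the same order.

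In haem and iron-sulfur metabolism, SLC46A1, a haem and folate transporter, was 3.11-fold lower in the Enshi black liver than in Large White (2.19 to 4.50) and 3.0-fold lower than in Chinese wild boar (2.11 to 4.34). The mitochondrial glutaredoxin GLRX5, needed for iron-sulfur clusters, was 2.69-fold (2.51 to 2.87) and 3.64-fold (3.42 to 3.88) lower in the same 2 comparisons. UROS, a haem synthesis enzyme, was 2.31-fold lower in Enshi black than in Chinese wild boar (2.08 to 2.57). BLVRA, a biliverdin reductase of haem breakdown, was 2.42-fold higher in Chinese wild boar than in Large White (2.24 to 2.62).

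A pair of iron-binding defence proteins also passed. The siderophore-binding lipocalin LCN2 had 12.1 CPM in Enshi black, 3.39 in Chinese wild boar and 2.15 in Large White. It was 5.65-fold higher in the Enshi black liver than in Large White (4.07 to 8.02) and 3.59-fold higher than in Chinese wild boar (2.73 to 4.76), the same order as BMP6. Lactotransferrin (LTF) had 0.927, 3.84 and 1.23 CPM, highest in Chinese wild boar. LTF was 4.14-fold lower in Enshi black than in Chinese wild boar (2.51 to 7.16).

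Around MT3, 52 genes of metal buffering, zinc and copper were listed, of which 31 had a matched ID and 26 were expressed. MT3 and MT1X were among the genes that passed as lower in all 3 comparisons. In all, 1 passed as higher and 3 as lower between Enshi black and Large White, 1 and 4 between Chinese wild boar and Large White, and 0 and 5 between Enshi black and Chinese wild boar. The shares over all expressed genes were 4.69% higher and 8.39% lower, 2.96% and 3.74%, and 4.03% and 7.1% in that order. The list medians were 0.15, 0.17 and 0.03 on the log2 scale, beside 0.01, 0.00111 and 0.00952 over all expressed genes. A log2 fold above 0, the opposite side to the metallothioneins, was seen in 16, 14 and 13 of the 26 members. With all-gene medians near 0, about as many of all expressed genes lie above 0 as below it. MTF1, the metal-sensing transcription factor of metallothionein genes, and the zinc exporter SLC30A1 had no matched ID and were not analysed here.

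Among zinc transporters, SLC30A2 passed as lower than Large White in both other libraries, as the metallothioneins did. It had 0.973 CPM in Enshi black, 0.859 in Chinese wild boar and 6.14 in Large White, and was 6.31-fold lower in Enshi black (3.95 to 10.6) and 7.15-fold lower in Chinese wild boar (4.28 to 12.7) than in Large White. Enshi black and Chinese wild boar differed by less than counting error, with a fold of 1.13 (0.569 to 2.29). The zinc importer SLC39A5 had 108, 306 and 186 CPM and was 2.83-fold lower in Enshi black than in Chinese wild boar (2.69 to 2.96).

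Genes of copper handling showed several orders across the livers. The copper chaperone ATOX1 had 47.3 CPM in Enshi black, 116 in Chinese wild boar and 37.0 in Large White, and was 3.13-fold higher in Chinese wild boar than in Large White (2.88 to 3.41) and 2.45-fold lower in Enshi black than in Chinese wild boar (2.28 to 2.64). The copper and zinc superoxide dismutase SOD1 had 517, 1104 and 589 CPM, also highest in Chinese wild boar. SOD1 was 2.13-fold lower in Enshi black than in Chinese wild boar (2.09 to 2.18). Its extracellular relative SOD3 was 4.06-fold lower in Chinese wild boar than in Large White (3.49 to 4.74). With 19.9 CPM in Enshi black, 10.7 in Chinese wild boar and 43.3 in Large White, SOD3 was highest in Large White as the metallothioneins were, and its 2.18-fold lower level in Enshi black than in Large White (1.94 to 2.45) did not pass. SCO1, a copper chaperone of cytochrome oxidase, was 2.49-fold higher in the Enshi black liver than in Large White (2.25 to 2.76).

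Taking the 3 lists together without BMP6, SLC40A1 and MT3, 9 of 89 expressed genes passed between Enshi black and Large White (10.1%), 7 between Chinese wild boar and Large White (7.87%) and 12 between Enshi black and Chinese wild boar (13.5%). These shares lie near the 13.1%, 6.7% and 11.1% of all expressed genes, so metal genes as a whole did not stand out by count.

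Response programmes known to act on these genes were also listed. Of 14 expressed genes known as targets or partners of the oxidant regulator NRF2, which is known to act on SLC40A1 in mouse macrophages, 1 passed as higher and 2 as lower in Enshi black against Large White, and likewise against Chinese wild boar. Between Chinese wild boar and Large White 2 passed as higher and none as lower. The list median log2 fold was 0.39 between Enshi black and Large White, 0.22 between Chinese wild boar and Large White, and 0.01 between Enshi black and Chinese wild boar. Of all expressed genes, 4.69% passed as higher and 8.39% as lower, 2.96% and 3.74%, and 4.03% and 7.1% in the same order of comparisons. The quinone reductase NQO1 had 26.1 CPM in Enshi black, 5.81 in Chinese wild boar and 2.97 in Large White, and was 8.79-fold higher in the Enshi black liver than in Large White (6.70 to 11.7). The 2 lower genes had near no counts in Enshi black: KEAP1, the repressor of NRF2, had 5 counts there against 146 in Chinese wild boar and 165 in Large White, and the sulfiredoxin SRXN1 had 0 against 96 and 88. That library also had the 47 IDs at or below the floor described above, a rule that KEAP1 and SRXN1 themselves did not meet. The cause of such low counts was not tested. In Chinese wild boar the peroxiredoxin PRDX1 was 2.35-fold (2.22 to 2.49) and glutathione reductase GSR 2.34-fold (2.06 to 2.66) higher than in Large White.

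Of 11 expressed acute phase and glucocorticoid response genes, 1 passed as higher and 3 as lower between Enshi black and Large White, 1 and 1 between Chinese wild boar and Large White, and 1 and 4 between Enshi black and Chinese wild boar. Over all expressed genes the shares were 4.69% and 8.39%, 2.96% and 3.74%, and 4.03% and 7.1%. C-reactive protein (CRP) had 417 CPM in Enshi black, 1196 in Chinese wild boar and 2632 in Large White, the same order as MT3 and MT1X, and passed in all 3 comparisons. It was 2.20-fold lower in Chinese wild boar than in Large White (2.17 to 2.23). The glucocorticoid-induced FKBP5 had 66.9, 148 and 47.8 CPM, a different order. LCN2, which passed as higher in Enshi black against both other libraries, had 12.1, 3.39 and 2.15 CPM, the reverse of the CRP order. A log2 fold above 0 was seen in 4, 4 and 3 of the 11 genes. The list medians were -0.40, -0.22 and -0.29. The part of acute phase genes in the metallothionein values was not tested.

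In whole liver, fewer cells of a type and less RNA per cell cannot be told apart, so markers of the cells that make these genes are given beside them. Of 18 expressed endothelial markers, 1 passed as higher and 1 as lower between Enshi black and Large White, none and 1 between Chinese wild boar and Large White, and 2 and none between Enshi black and Chinese wild boar. Counted in either direction, these are 2, 1 and 2 of 18 markers, beside 13.1%, 6.7% and 11.1% of all expressed genes. Their median log2 folds were -0.08, -0.39 and 0.24. Their summed level was 1157 CPM in Enshi black, 1012 in Chinese wild boar and 1438 in Large White, and none was at 0. That order rested on STAB1: without it, in a sum added after the values were seen, the levels were 971 CPM in Enshi black, 844 in Chinese wild boar and 938 in Large White. The part of endothelial markers in the BMP6 values was not tested. PECAM1, a general endothelial marker, had 111, 108 and 95.6 CPM. The endothelial matrix gene MMRN2 had 341 counts in Enshi black, 18 in Chinese wild boar and 9 in Large White. MMRN2 was 34.3-fold higher in the Enshi black liver than in Large White (17.9 to 75.7), a fold resting on 0.461 CPM in Large White. The sinusoidal receptor STAB1 was 2.68-fold lower in the same comparison (2.59 to 2.79). The VEGF receptor KDR was 2.74-fold higher in Enshi black than in Chinese wild boar (2.56 to 2.92).

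Of 15 expressed stellate cell and fibroblast markers, 7 passed as higher and none as lower between Enshi black and Large White, with a median log2 fold of 0.55. The counts were 2 and none between Chinese wild boar and Large White, and 3 and 1 between Enshi black and Chinese wild boar, with medians of 0.46 and 0.64. Of all expressed genes, 4.69% passed as higher and 8.39% as lower in the first of these comparisons, 2.96% and 3.74% in the second, and 4.03% and 7.1% in the third. The 16 matched markers summed to 1642 CPM in Enshi black, 902 in Chinese wild boar and 717 in Large White, the same order as BMP6, and LUM was at 0 in Large White. A log2 fold above 0 was seen in 11, 11 and 10 of the 15 expressed markers, and single markers disagreed. RELN, a secreted glycoprotein of stellate cells, had 152, 36.3 and 42.0 CPM, lowest in Chinese wild boar. RELN was 3.63-fold (3.36 to 3.92) and 4.19-fold (3.87 to 4.55) higher in the Enshi black liver than in Large White and Chinese wild boar. DES had 14.2, 37.8 and 21.0 CPM and passed as 2.67-fold lower in Enshi black than in Chinese wild boar (2.33 to 3.06). The part of these markers in the BMP6 values was not tested.

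Of 14 expressed Kupffer cell and macrophage markers, none passed as higher and 4 as lower between Enshi black and Large White, 1 and 1 between Chinese wild boar and Large White, and 1 and 3 between Enshi black and Chinese wild boar. The shares of all expressed genes were 4.69% and 8.39%, 2.96% and 3.74%, and 4.03% and 7.1%. Their median log2 folds were -0.50, -0.28 and -0.22. The 15 matched markers summed to 2073 CPM in Enshi black, 2240 in Chinese wild boar and 2525 in Large White, and none was at 0. That order rested on CD14: without it, in a sum likewise added afterwards, the levels were 1212 CPM in Enshi black, 1184 in Chinese wild boar and 1393 in Large White. Single markers disagreed: the receptor CSF1R was 7.12-fold lower in the Enshi black liver than in Large White (6.35 to 8.01), the complement gene C1QA had 548, 517 and 522 CPM, and the mannose receptor MRC1 had 190, 61.9 and 126 CPM, the order of SLC40A1. MRC1 was 3.07-fold higher in Enshi black than in Chinese wild boar (2.88 to 3.27). The part of macrophage markers in the SLC40A1 values was not tested.

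**Figure D4:**
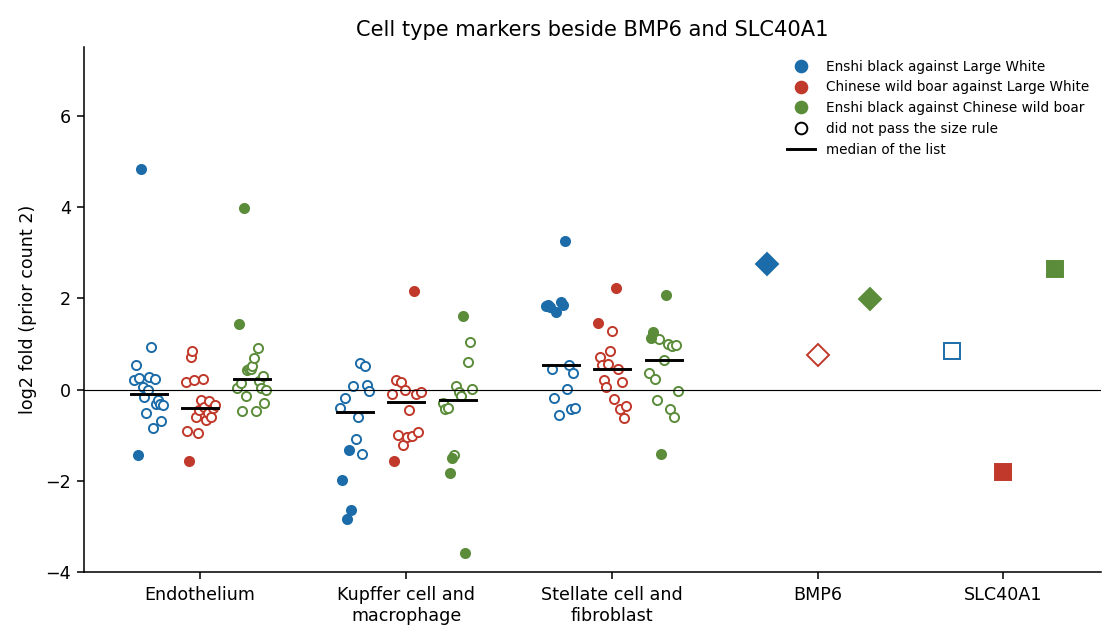
Log2 folds (prior count 2) of expressed markers of endothelium, of Kupffer cells and macrophages, and of stellate cells and fibroblasts, beside those of BMP6 and SLC40A1, with colours for the 3 comparisons. Each point is 1 gene, black bars are list medians and open symbols did not pass; the stellate cell and fibroblast medians lie above 0 in all 3 comparisons, and the macrophage medians below it.

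Other cell types were checked too. For MT3, known from brain, 11 of 18 neural markers had a matched ID, and STMN2, MOG and OLIG2 were at 0 in all 3 libraries. SNAP25 was at 0 in both Enshi black and Large White. The astrocyte gene GFAP passed as 4.09-fold higher in Chinese wild boar than in Large White (2.69 to 6.42). The 6 matched neutrophil markers summed to 19.5, 10.3 and 39.8 CPM. CSF3R was 5.62-fold lower in Enshi black (4.65 to 6.84) and 7.53-fold lower in Chinese wild boar (6.03 to 9.51) than in Large White. LCN2, also on this list, went the other way, with 12.1, 3.39 and 2.15 CPM. Of the 4 expressed markers, 1 passed as higher and 2 as lower between Enshi black and Large White. The counts were none and 2 between Chinese wild boar and Large White, and 1 and none between Enshi black and Chinese wild boar. Counted in either direction, 13.1%, 6.7% and 11.1% of all expressed genes passed.

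Of 9 matched erythroid genes, HBB, HBM, ALAS2 and TFRC were expressed. Haemoglobin HBB had 36.5 CPM in Enshi black, 182 in Chinese wild boar and 102 in Large White, and was 4.99-fold lower in Enshi black than in Chinese wild boar (4.62 to 5.40). Hepatocyte markers were abundant, with albumin at 66508, 53648 and 25310 CPM, although APOA1 had only 2, 2 and 0 counts. Of 14 expressed hepatocyte markers, 2 passed as higher between Enshi black and Large White, 1 between Chinese wild boar and Large White, and 2 as higher and 2 as lower between Enshi black and Chinese wild boar. Counted in either direction over all expressed genes, 13.1%, 6.7% and 11.1% passed in the same order. None of 5 expressed cholangiocyte markers passed against Large White in either other library. In these comparisons 13.1% (Enshi black) and 6.7% (Chinese wild boar) of all expressed genes passed.

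Genes with the most similar patterns were found by the Euclidean distance between log2(CPM + 0.5) values, centred on each gene's mean, over the 3 libraries, among 6722 other named genes with a mean of at least 5 CPM. With only 3 libraries, likeness of pattern is a description. Nearest to BMP6 were NQO1 (distance 0.141 on the log2 scale), the fatty acid ligase ACSL4 (0.20), the glycogen phosphatase subunit PPP1R3B (0.234) and the interferon-induced helicase DDX60 (0.292). ACSL4 had 152, 31.3 and 20.5 CPM and was 7.41-fold higher in the Enshi black liver than in Large White (6.67 to 8.24).

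Nearest to SLC40A1 were FMO5, a flavin monooxygenase (0.242), MIOX, an inositol oxygenase that binds iron (0.244), STEAP4 (0.382) and AOX1, a molybdenum- and iron-containing aldehyde oxidase (0.439). MIOX had 33.7 CPM in Enshi black, 6.87 in Chinese wild boar and 17.8 in Large White. FMO5 had 716, 157 and 396 CPM. All 4 passed as higher in Enshi black than in Chinese wild boar, by 3.94-fold to 4.90-fold.

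No gene came as close to MT3. The nearest were the axonemal dynein DNAH1 (distance 1.62), the transglutaminase TGM3 (2.44), the sodium channel subunit SCNN1B (2.51) and the IGF-binding protein IGFBP1 (2.66). DNAH1 had 1.20 CPM in Enshi black, 6.97 in Chinese wild boar and 117 in Large White, and was 97.0-fold lower in the Enshi black liver than in Large White (66.0 to 149). TGM3 had 0 counts in Enshi black, 37 in Chinese wild boar and 315 in Large White. Set against the floor of 3 counts per library, TGM3 was 116-fold lower in the Enshi black liver than in Large White. IGFBP1 had 17.3, 118 and 544 CPM.

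**Figure D5:**
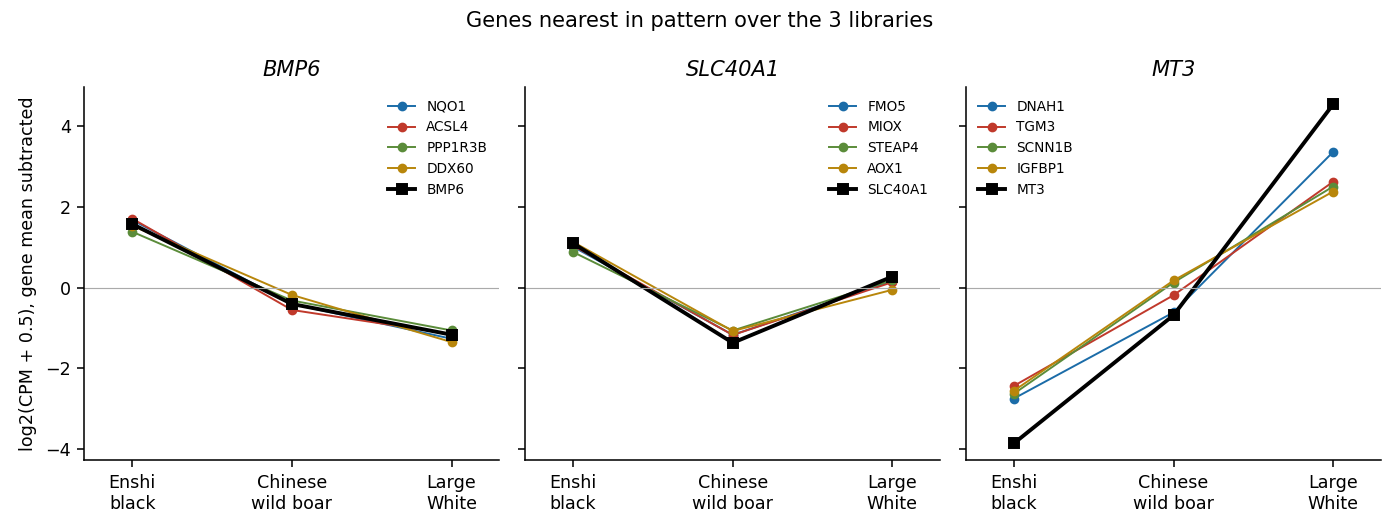
Log2(CPM + 0.5) with each gene's mean subtracted, in the 3 libraries, for BMP6, SLC40A1 and MT3 (black squares) and the 4 genes nearest to each in pattern (coloured circles). The genes near BMP6 and SLC40A1 overlie them, whereas those near MT3 span a smaller range than MT3 itself.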

How the data were processed

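Liver RNA was sequenced as paired-end reads, with 1 library per breed, per the labels' protocols. The deposited files hold raw counts per Ensembl gene ID, which the authors did not normalize. TopHat2 2.1.0 and HTSeq 0.6.1, together with edgeR 3.16.3 and the build Sscrofa10.2, are listed per the submitters' processing notes. Neither the annotation release, nor strandedness, nor how multiply aligned reads were handled is given in the sources used here. The 5 rows that name no gene stayed out of library sizes, and the row for alignments that are not unique holds 0 in each file. Of gene, no-feature and ambiguous reads, no-feature reads were 19.0% in Enshi black, 18.9% in Chinese wild boar and 22.0% in Large White, and ambiguous reads 1.89%, 2.49% and 2.18%. Symbols were matched by ID for 11804 IDs.

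TMM factors (edgeR 4.0.16, R 4.3.3) were 1.04, 0.979 and 0.978. Folds and intervals were computed in Python 3.11.15 with scipy 1.17.1, tested on simulated data, and log2 folds carry a prior count of 2. With 1 library per group there is no p-value, and reads without molecular identifiers are not independent molecules, so the intervals, like the floors, cover only counting error. The genes, lists and rules were chosen with earlier results of these data known. Genes named were BMP6, SLC40A1, MT3, every passing gene of the 3 metal lists, a set of fixed iron and metallothionein genes, the 4 nearest patterns per gene, and up to 3 passing genes per comparison of other lists. Receptors, SMAD genes and targets, neighbouring genes and single markers that did not pass were added after their values were seen. Scaling by total counts or by size factors from DESeq2 1.42.0, filters of none or of 10 CPM, limits of 1.5-fold and 4-fold for the nearest bound, and an assumed coefficient of variation between animals of 0.2 or 0.4 were tried as alternatives. A planned trend with protein length and promoter GC was not run, as it needs sequence tables not used here. No sequences or coordinates are printed for the same reason. Some results of the neural and cholangiocyte marker lists are not reported here.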

Additional observations from a re-analysis of the deposited data

How the results depend on the processing

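No paired analysis was possible because each breed has 1 library. With DESeq2 size factors and with total counts, BMP6, SLC40A1 and MT3 kept their directions and their calls in all 3 comparisons. Total counts moved the median over all expressed genes to a log2 fold of 0.10 for Enshi black against either other library. The fold of BMP6 between Chinese wild boar and Large White, 1.71, passed at a near bound of 1.5, and that between Enshi black and Chinese wild boar, 3.98, did not pass at 4 or with a CV of 0.4. The SLC40A1 fold between Chinese wild boar and Large White, 0.279, did not pass at 4 or with a CV of 0.2 or 0.4. Summing the MT3 and MT1X IDs gave folds of 0.0411 between Enshi black and Large White, 0.117 between Chinese wild boar and Large White and 0.351 between Enshi black and Chinese wild boar, all still past the size rule; MT1X has most of those counts. With near bounds of 1.5 and 4, CVs of 0.2 and 0.4 and a filter of 10 CPM, in that order, genes passing as higher numbered 1531, 150, 268, 126 and 352 (621 as reported) between Enshi black and Large White, and genes passing as lower 1972, 444, 649, 399 and 638 (1110). Between Enshi black and Chinese wild boar they numbered 1303, 117, 240, 108 and 276 higher (533) and 1673, 390, 559, 352 and 544 lower (939). Between Chinese wild boar and Large White they numbered 979, 87, 153 and 72 higher (391) without the filter and 1141, 114, 211, 97 and 275 lower (495). Members of the 3 metal lists passing with near bounds of 1.5 and 4 and CVs of 0.2 and 0.4 numbered 25, 5, 6 and 4 (11 as reported) between Enshi black and Large White, 20, 3, 4 and 3 (9) between Chinese wild boar and Large White, and 35, 3, 6 and 3 (15) between Enshi black and Chinese wild boar. Of 116 passing folds of other genes in the lists, patterns and neighbours, 116 still passed with DESeq2 size factors, 110 with total counts, 42 at a near bound of 4 and 31 with a CV of 0.4. Those lost with total counts included SLC46A1, UROS, SOD1 and FKBP5 between Enshi black and Chinese wild boar, and MMP9 between Enshi black and Large White. With candidates of at least 1 CPM, 2 of the 4 nearest patterns were shared for BMP6 and 2 for SLC40A1, while all 4 were for MT3. The cause of the calls lost with total counts was not tested. A larger bound, an added CV and a stricter filter pass fewer genes by construction. Depth limits SLC40A1 in Chinese wild boar (44 counts) and MT3 in Enshi black (45 counts).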
